A study of Schizosaccharomyces pombe with 6 samples.

Results

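The transcripts described here are those of 9 fission yeast genes for the use of sugars other than glucose and of glycerol, out of 6988 features in the count table. They are a fixed list of names, put together by role when earlier results of these data were already known. Of the 9, 4 encode hydrolases of disaccharides and related sugars, *inv1* (SPCC191.11), *mal1* (SPBC1683.07), *gto1* (SPAC1039.11c), and *gto2* (SPAC30D11.01c). Another 3 serve glycerol use, *gld1* (SPAC13F5.03c), *dak1* (SPAC22A12.11), and *dak2* (SPAC977.16c). The last are *fbp1* (SPBC1198.14c), for gluconeogenesis, and *scr1* (SPBC1D7.02c), for the repressor. All 9 had enough counts to be tested.

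When glucose is plentiful, fission yeast keeps genes for other carbon sources at low levels. The receptor Git3 and a G protein activate adenylate cyclase, and the cAMP-dependent kinase Pka1 then holds back the activator Rst2. The zinc finger protein Scr1 binds promoters such as those of *inv1* and *fbp1* and represses them. When glucose runs out, Rst2 and the Atf1-Pcr1 heterodimer raise *fbp1* transcription. Sucrose is then split outside the cell by invertase, maltose by alpha-glucosidases, and glycerol enters glycolysis through dihydroxyacetone.

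The comparison asked how RNA levels differ between wild-type cells and the mutant *asp1-H397A aps1*∆ *siw14*∆ *spx1*∆. The point mutation inactivates the pyrophosphatase domain of Asp1, an enzyme of inositol pyrophosphate turnover, and the deletions remove the inositol pyrophosphatases Aps1 and Siw14 and the SPX domain protein Spx1. Both strains were labelled haploid, *h-*, and in vegetative growth, and were grown in log phase at 30°C in ePMGT medium, a minimal glutamate medium with thiamine. Its carbon source is not given in the sources at hand. In the mutant, *asp1-H397A* was marked with natMX, *aps1*∆ with kanMX, *siw14*∆ with hygMX, and *spx1*∆ with ura4MX, which makes the strains differ in uracil synthesis too. The study's strain list gives *leu1-32*, *ura4-D18*, and *his3-D1* as common to its strains, with 1 of 2 *ade6* alleles in each, which may differ between the strains compared. It lists this mutant genotype as *h+*, unlike the label. Poly(A)+ RNA was sequenced from 3 biological replicate cultures of each strain, with no library of any single mutant analysed here, so the effects of the 4 alleles and of the marker cannot be told apart.

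Total counts ran from 16593476 to 21436751 per wild-type library and from 20305111 to 22690741 per mutant library. The deleted genes had fewer counts in every mutant library than in any wild-type one. *aps1* had 3083 to 3657 counts in wild-type and 307 to 330 in the mutant, *siw14* had 1925 to 2666 and 70 to 107, *spx1* had 4524 to 6452 and 1915 to 2369, and *ura4* had 0 and 8309 to 9631. *spx1* kept 33.1% of its wild-type level. Which part of the gene those counts come from was not tested. Counts cannot check the point mutation in *asp1* (1199 to 1417 and 927 to 1034). Levels are given as normalized counts, that is counts divided by the effective size of the library relative to the mean of the 6 libraries. A gene was called when the adjusted p from edgeR was at most 0.05, the change at least 2-fold, and the strain with the higher mean had at least 100 normalized counts.

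In the mutant, 1 of the 9 transcripts was called higher, the invertase mRNA *inv1*, at 3.21 times its wild-type level. By the same rule 2 were called lower, the alpha-glucosidase mRNA *gto2* at 48.6% of its wild-type level and the dihydroxyacetone kinase mRNA *dak2* at 40.4%. Over the 5947 genes tested these shares were 0.37% and 1.72%. With the adjusted p as the sole cutoff, 2 of the 9 were higher (*inv1* and *scr1*), against 5.33% of all genes, and 3 were lower (*gto2*, *dak1*, and *dak2*), against 7.03%. In all, 5 of 9 passed at the adjusted p, against 12.4% of all genes, and in 7 of 9 the 3 mutant libraries lay wholly above or below the 3 wild-type ones, against 33.7%. The remaining 4, *mal1*, *gto1*, *gld1*, and *fbp1*, did not pass. The median log2 fold change of the 9 was −0.35 and that of all genes tested 0.00. The 9 genes did not move in 1 direction. With edgeR's glmTreat, which asks for evidence that a change exceeds 2-fold, 0 of the 9 were called. Over the 5947 genes tested it called only 7 higher and 40 lower.

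**Figure D1:**
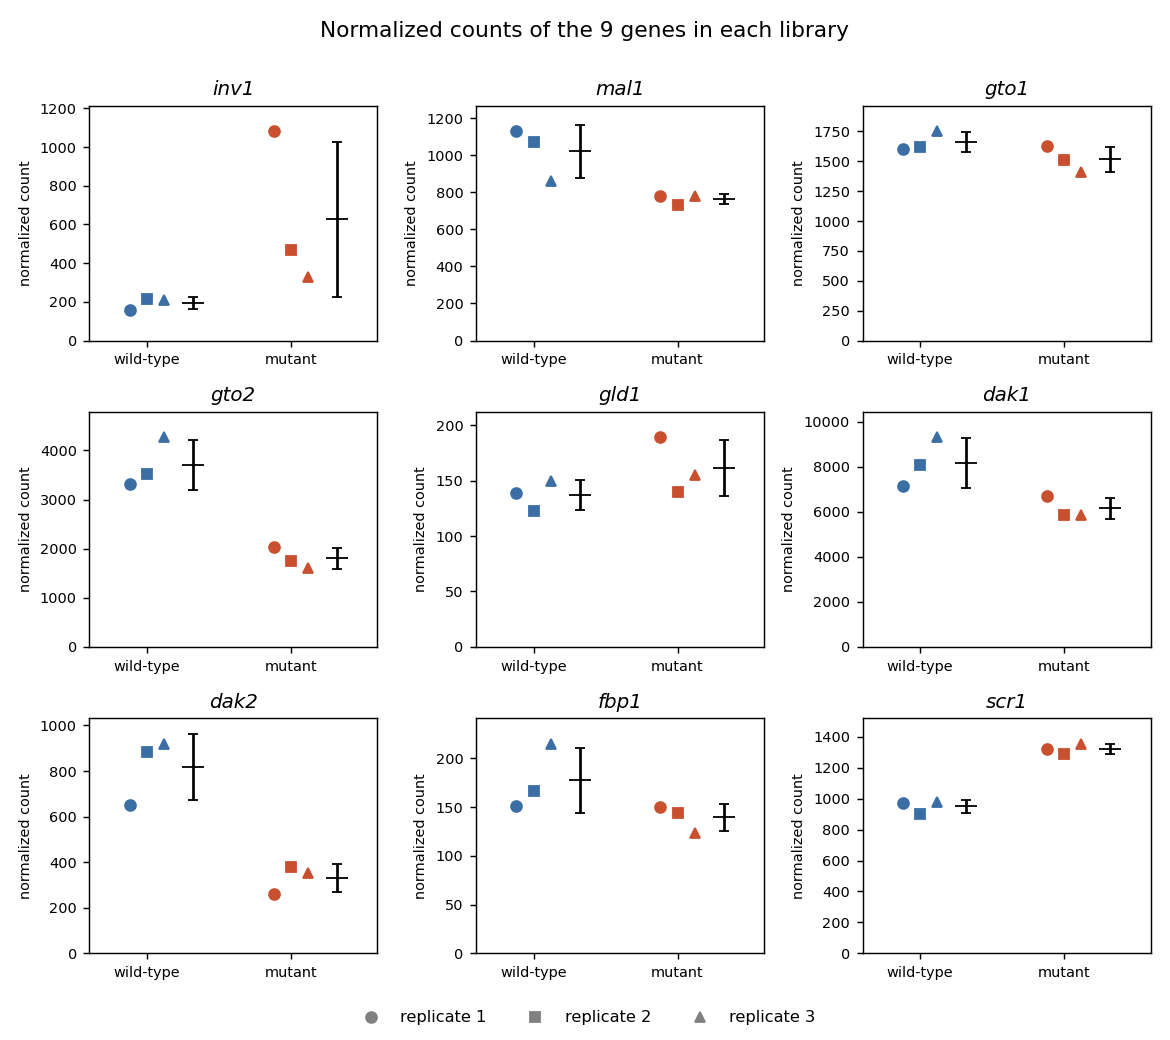
Normalized counts (linear y axes from 0) of the 9 genes in 3 wild-type libraries (blue) and 3 mutant libraries (orange), 1 panel per gene. Symbols mark replicates 1 to 3 and black bars the mean ± SD. Mutant replicate 1 has 1084 normalized counts of *inv1*, against 467 and 327 in the other mutant libraries. The strains do not overlap for *inv1*, *mal1*, *gto2*, *dak1*, *dak2*, *fbp1*, and *scr1*, as for 33.7% of all genes tested.

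*inv1* encodes the external invertase, which splits sucrose into glucose and fructose. Its normalized counts were 159.5, 216, and 209.6 in wild-type replicates 1, 2, and 3 and 1084, 467, and 327 in mutant replicates 1, 2, and 3. Every mutant library lay above every wild-type library, as was the case for 16.4% of all genes, and the mutant libraries differed among themselves by more than the wild-type ones. The means were 195.0 ± 30.9 and 626 ± 403 (SD, n = 3 each), and the log2 fold change was 1.68 with a standard error of 0.36 (edgeR adjusted p = 0.0118). The 95% interval of the log2 fold change ran from 0.88 to 2.48. Without mutant replicate 1 the log2 fold change was 1.02 (edgeR adjusted p = 0.0212), and over 12 other fits it ran up to 1.99 with *inv1* called in each.

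Mutant replicate 1 had 2.73 times the mean *inv1* level of the other mutant libraries. Among the 5049 genes with a mean of at least 100 normalized counts this ratio was at least 2 for only 5 genes, of which *inv1* had the largest. The hexose transporter gene *ght5* was another of them, at 10237 normalized counts in mutant replicate 1 against 4450.4 and 4936 in mutant replicates 2 and 3 (9189, 10886, and 10179 in wild-type). These genes were picked after their values were seen. The remaining 3 were SPBPB21E7.08 (a ratio of 2.58), SPCC1235.18 (2.31), and the noncoding SPNCRNA.1473 (2.16). No other of the 9 genes stood out in that library, where their ratios ran from 0.71 for *dak2* to 1.28 for *gld1*. RNA came from whole cultures, so a higher level in every cell and a very high level in a few cells cannot be told apart.

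*gto2* encodes an extracellular alpha-glucosidase. It had 3313, 3528, and 4268 normalized counts in wild-type replicates 1, 2, and 3 and 2037, 1752, and 1614 in the mutant ones. The groups did not overlap, with the mutant below, as for 17.3% of all genes. The means were 3703 ± 501 and 1801 ± 216 (SD, n = 3 each). The log2 fold change of −1.04 (95% interval −1.31 to −0.77, edgeR adjusted p = 0.000238) was just past the 2-fold cutoff. It was just short of it, at −0.93 and −0.96, when wild-type or mutant replicate 3 was left out, where the adjusted p still passed.

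Neither of the other alpha-glucosidase genes, *mal1* and *gto1*, passed the test. *mal1*, for an alpha-glucosidase acting on maltose, had 1132, 1071, and 861 normalized counts in wild-type and 781, 732, and 781 in the mutant. The mutant libraries were all lower, but the log2 fold change of −0.42 (95% interval −0.71 to −0.12) did not pass (adjusted p = 0.0684 from edgeR). It passed with DESeq2 (adjusted p = 0.031) and without wild-type replicate 3 (log2 fold change −0.53, adjusted p = 0.000147 from edgeR). *gto1*, encoding an alpha-glucosidase like that of *gto2*, had 1602, 1622, and 1754 normalized counts in wild-type and 1624, 1514, and 1408 in the mutant. These groups overlapped, and the log2 fold change of −0.13 (95% interval −0.35 to 0.09) ended well short of a 2-fold change on either side. By the ASM294v3 annotation *gto1* overlaps *mmf2* and the noncoding SPNCRNA.1087 on the other strand. How reads of the overlaps were assigned was not tested.

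Glycerol is oxidized to dihydroxyacetone by the glycerol dehydrogenase of *gld1*, and dihydroxyacetone is phosphorylated by the kinases of *dak1* and *dak2*. *gld1* had 139, 123, and 150.1 normalized counts in wild-type and 189, 140.1, and 156 in the mutant. These ranges overlapped, with a log2 fold change of 0.24 (95% interval −0.15 to 0.63, adjusted p = 0.44 from edgeR). The interval includes 0.

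*dak2* had 651, 883, and 920.2 normalized counts in wild-type and 260.1, 380.5, and 351 in the mutant, so that all mutant libraries were well below all wild-type ones. Its log2 fold change of −1.31 (95% interval −1.72 to −0.90, edgeR adjusted p = 0.00101) was the largest fall of the 9. It stayed called in all 12 other fits, at −1.45 to −1.16, but not with glmTreat. *dak1*, the more abundant kinase mRNA, had 7136, 8076, and 9319 normalized counts in wild-type and 6710.3, 5882, and 5865 in the mutant. The groups did not overlap, and *dak1* fell by 0.41 on the log2 scale (95% interval −0.66 to −0.16, edgeR adjusted p = 0.0378), well short of 2-fold. It no longer passed without wild-type replicate 2 (adjusted p = 0.129) or without mutant replicate 1 (0.0634), 2 (0.18), or 3 (0.18).

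The kinase mRNAs were also set against each other within each library, where scaling plays no part. There were 0.0912, 0.109, and 0.0987 *dak2* counts per *dak1* count in wild-type and 0.0388, 0.0647, and 0.0599 in the mutant. The mean log2 ratio was 0.90 lower in the mutant (a difference of −0.90; exact permutation test, two-sided, p = 0.1, the smallest that 3 libraries against 3 allow). The ranges did not overlap. The same was done for *inv1* over *fbp1*, a pair of genes that glucose represses: 1.05, 1.30, and 0.974 in wild-type and 7.22, 3.24, and 2.64 in the mutant, a log2 difference of 1.84 (exact permutation test, two-sided, p = 0.1, again the smallest possible).

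*fbp1* encodes fructose-1,6-bisphosphatase, needed for gluconeogenesis and the classical readout of glucose repression in this yeast. Its normalized counts were 152, 166, and 215 in wild-type and 150.0, 144, and 124 in the mutant. The mutant libraries were lower, by little, and the log2 fold change of −0.35 (95% interval −0.75 to 0.05, adjusted p = 0.252 from edgeR) did not pass. The interval holds no rise of the size seen for *inv1*. A noncoding gene, SPNCRNA.1324, covers the whole of *fbp1* on the other strand and had more counts than *fbp1* in 5 of the 6 libraries, 333, 328, and 189 in wild-type and 464, 389, and 405 in the mutant, against 133, 177, and 195 and then 165, 141, and 133 for *fbp1*. The study names a directional library kit, but no source used here states whether reads were counted by strand. The *fbp1* value is uncertain to that extent.

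*scr1* encodes the repressor of *inv1* and other glucose-repressed genes. It had 971, 900.3, and 979 normalized counts in wild-type and 1319.5, 1291, and 1356 in the mutant. Both groups were tight, with SDs of 43.2 and 32.7 (n = 3 each), and did not overlap. The mutant mean was 1.39 times the wild-type mean, for a log2 fold change of 0.48 (95% interval 0.24 to 0.71, edgeR adjusted p = 0.0142). The mRNAs of the repressor and of its target *inv1* were both higher. The adjusted p for *scr1* was above 0.05 without wild-type replicate 2 (0.113) or without mutant replicate 1 (0.0688), 2 (0.0803), or 3 (0.103), while the log2 fold change stayed between 0.44 and 0.50.

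**Figure D2:**
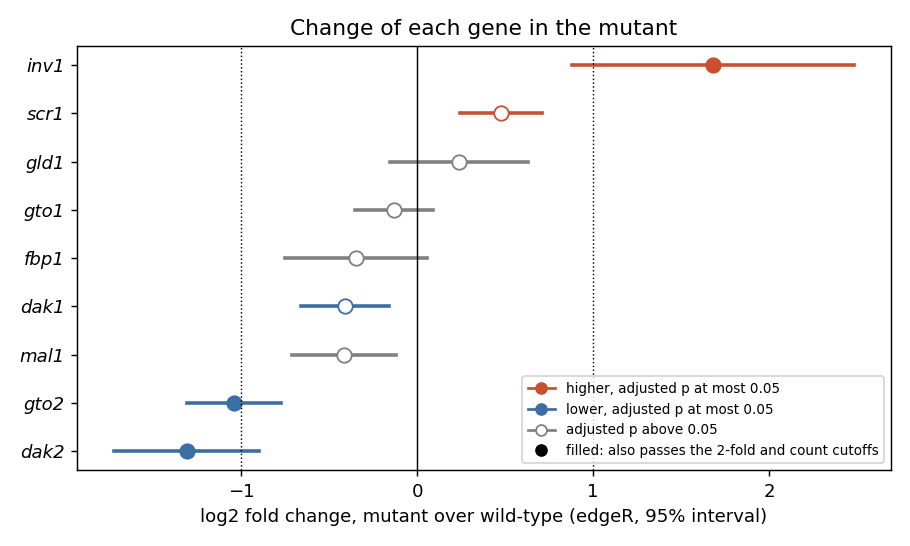
Log2 fold change of each of the 9 genes, mutant over wild-type cells (edgeR, 3 libraries each), with 95% intervals; dotted lines mark a 2-fold change. Orange marks genes higher and blue genes lower by the adjusted p, grey the rest, and filled points pass every cutoff. The changes run from −1.31 for *dak2* to 1.68 for *inv1*.

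Levels were compared between genes per exon length, as RPKM, which divides counts by exon length and by library size. In wild-type cells *dak1* was the most abundant at 203 ± 12.09 RPKM (SD, n = 3), above 87.0% of the 4937 coding genes tested, whose median was 35.2. *gto2* followed at 48.1 ± 2.98. *gto1* (22.3 ± 0.70), *dak2* (18.9 ± 2.37), *mal1* (18.7 ± 3.86), and *scr1* (13.3 ± 1.09) came next; *mal1* overlapped *gto1*, *dak2*, and *scr1* in range. The least abundant were *fbp1* (5.09 ± 0.57), *inv1* (3.51 ± 0.42), and *gld1* (3.50 ± 0.32), of which the last 2 overlapped. At 3.51 RPKM, *inv1* lay above only 4.01% of the coding genes tested, a set that leaves out genes removed for low counts.

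In the mutant the top of this order stayed, with *dak1* at 149.9 ± 12.6 RPKM and *gto2* at 23.0 ± 2.88. *gto1* had 19.9 ± 1.52, *scr1* 18.1 ± 0.41, and *mal1* 13.6 ± 0.51. *inv1*, at 11.1 ± 7.18, moved above *dak2* (7.51 ± 1.40) in mean, though its lowest library (5.74) was below every *dak2* library (5.94, 8.64, and 7.94) and its highest, 19.2, was above every *mal1* and *scr1* library. *gto2* overlapped *gto1* in range, and *gto1* overlapped *scr1*. *gld1* and *fbp1* were last at 4.03 ± 0.64 and 3.93 ± 0.41, with overlapping ranges.

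Several of the 9 lie beside genes that fell. Of 18 coding genes directly on either side, 16 had enough counts, and 5 were lower and 0 higher by the adjusted p of edgeR (7.03% and 5.33% of all genes). *mal1* lies between *urh1*, a uridine ribohydrolase gene (log2 fold change −2.15), and the hexose transporter gene *ght4* (−2.07), both called lower, while *mal1* itself had −0.42. The noncoding SPNCRNA.1318, on the strand opposite *mal1* and overlapping it, had a mean of 248 normalized counts in wild-type and 63.1 in the mutant (log2 fold change −1.97); it was singled out after its values were seen. *gto1* lies beside *mmf2* (−1.30), which was called lower, and SPAC922.03, which did not pass. *dak2* lies between SPAC977.15 (−1.53), called lower, and SPAC977.17, a gene of the aquaporin superfamily (−0.25, adjusted p = 0.426 from edgeR) that overlaps *dak2* on the other strand. Beside *gto2*, SPAC30D11.02c was lower at the adjusted p (−0.79) but had a wild-type mean of only 50.1. It passed in 6 of 12 other fits, and did not with DESeq2 (adjusted p = 0.116), with the replicate number as a block (0.0760), without wild-type replicate 2 (0.151), or without mutant replicate 1 (0.102), 2 (0.162), or 3 (0.121). None of the tested neighbours of *inv1*, *gld1*, *dak1*, *fbp1*, or *scr1* passed.

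**Figure D3:**
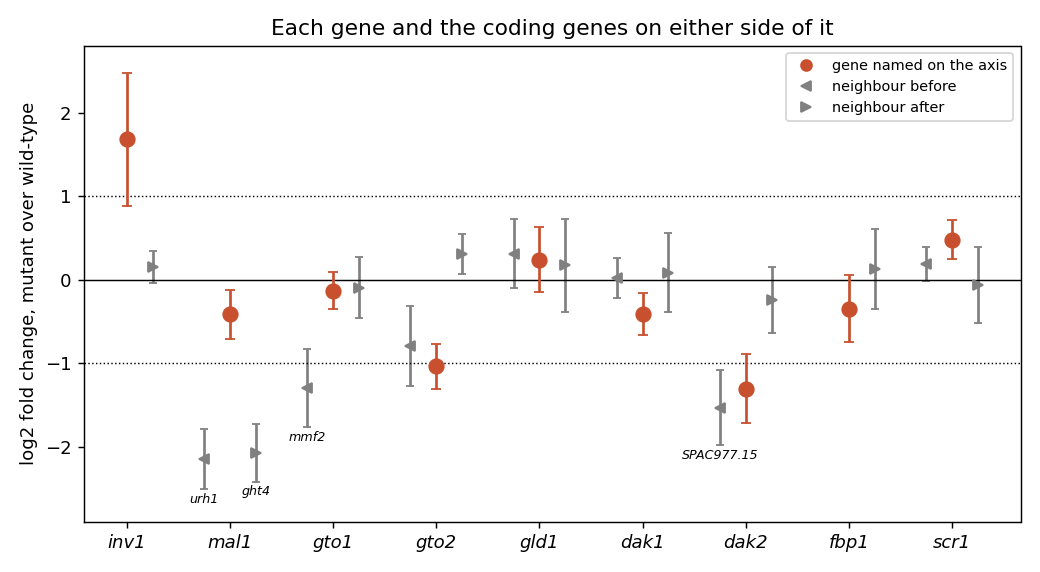
Log2 fold change, mutant over wild-type cells (edgeR, 95% intervals), of each of the 9 genes (orange circles) and of the coding genes before and after it on the chromosome (grey triangles); untested neighbours are left out. Called neighbours are named: *urh1* and *ght4* at −2.15 and −2.07 flank *mal1* at −0.42, and SPAC977.15 at −1.53 lies beside *dak2* at −1.31.

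Among 25 genes of glucose sensing and repression, 5 were lower and 0 higher by the edgeR adjusted p, against 7.03% and 5.33% of all genes. None of the 5 fell 2-fold, and the median log2 fold change of the list was −0.08. Those lower were the glucose receptor gene *git3* (2125 to 1646 normalized counts, log2 fold change −0.37), the G-alpha gene *gpa2* (2678 to 1946, −0.46), the G-beta gene *git5* (847 to 569, −0.57), and the paired transcription factor genes *atf1* (5275 to 3047, −0.79, adjusted p = 0.000856) and *pcr1* (2091 to 1545, −0.44). *git5* fell outside the rule for naming genes and was named after its values were seen. The G-gamma gene *git11* did not pass (−0.30, adjusted p = 0.268 from edgeR), and its groups overlapped. Only *atf1* passed in all 12 other fits. The count of lower genes was 1 without wild-type replicate 2 or without any of the 3 mutant replicates, and 8 without wild-type replicate 1 or 3. The kinase gene *pka1* (−0.37, adjusted p = 0.0716), the activator gene *rst2* (−0.28, adjusted p = 0.171), and the corepressor genes *tup11* (0.05) and *tup12* (−0.08) did not pass.

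Among 8 other genes of glycoside hydrolysis and disaccharide uptake, 1 was higher and 1 lower by the adjusted p. For this list and the 3 that follow, the shares over all genes were again 5.33% higher and 7.03% lower. The higher was *inv2*, a second gene of the invertase family, with 993 normalized counts in wild-type and 1547 in the mutant (log2 fold change 0.64, adjusted p = 0.00768 from edgeR; 0.0505 if wild-type replicate 2 and 0.0537 if mutant replicate 3 was left out). The lower was *meu7*, encoding an alpha-amylase homolog (134 to 52.3, log2 fold change −1.35). None of 5 other glycerol and triose phosphate genes passed (0 of 5 by edgeR or DESeq2, with 0 at an unadjusted p under 0.05 by edgeR), though 2 were higher without wild-type replicate 3; the 5 include *gpd1* and *gpd2* for glycerol 3-phosphate dehydrogenase and *gut2*. Of 6 genes for galactose, gluconate, and hexitol use, 3 were lower and none higher, the gluconate kinase gene *idn1* (5382 to 3667, −0.55), *gal10* (70.2 to 36.8, −0.93), and the alpha-galactosidase gene *mel1* (16.3 to 4.83, −1.74), which is near the limit of detection. Without mutant replicate 3 none of these 3 passed, and 1 did when replicate 2 of either strain was left out. Of 8 hexose transporter genes 6 were tested. Here *ght1*, *ght3*, and *ght4* were lower (−1.58, −1.46, and −2.07) and *ght8* higher (0.47); *ght8* no longer passed without wild-type replicate 2 or any of the mutant replicates. *ght5* had −0.62 (adjusted p = 0.131) and was called lower without mutant replicate 1 (−1.10, adjusted p = 0.000513). In that library *ght5* lay within the wild-type range and *inv1* above it.

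**Figure D4:**
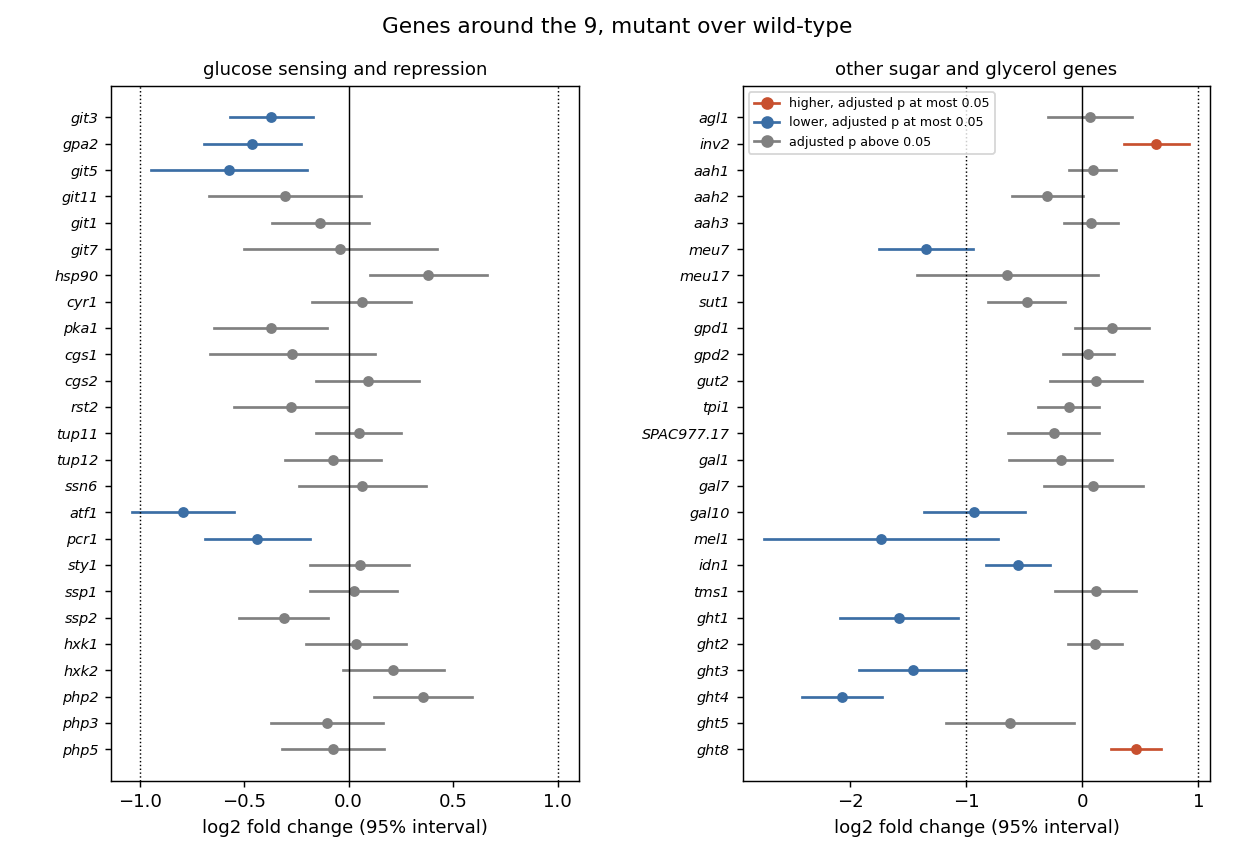
Log2 fold changes (edgeR, mutant over wild-type cells, 95% intervals) of the tested genes of glucose sensing and repression (left) and of the other sugar, glycerol, and transporter lists (right); the x axes differ and dotted lines mark 2-fold. Colours are as for the 9 genes. On the left *atf1* at −0.79 is the largest change, and on the right *ght4* at −2.07.

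The genes whose pattern over the 6 libraries lay nearest to each called gene were found by the root mean square distance of centred log2(normalized count + 1). For *inv1* these were SPNCRNA.1165, at a distance of 0.44 but with means of only 8.50 and 21.8 normalized counts, and SPAC4H3.08, at 0.45. SPAC4H3.08 is listed by the study as *fox2*. SPAC4H3.08 had 123, 88.2, and 153 normalized counts in wild-type and 338, 258, and 168 in the mutant (log2 fold change 1.07, adjusted p = 0.0236 from edgeR). It did not pass with library totals as the scaling (adjusted p = 0.0560) or without wild-type replicate 2 (0.101), mutant replicate 1 (0.110), or mutant replicate 2 (0.0571). For *gto2* the nearest were the noncoding SPNCRNA.747 and SPNCRNA.875, at 0.064 and 0.069, and for *dak2* the noncoding SPNCRNA.1195 and SPNCRNA.1276, at 0.10 and 0.12. SPNCRNA.1165 and SPNCRNA.875 passed in only 5 and 7 of the 12 other fits. The nearest genes were picked by likeness to a called gene over these same libraries. A difference between the strains was thus built into the choice, and their p-values are no separate evidence. By this distance the nearest genes to *inv1* were farther from it than those to *gto2* and *dak2*.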

How the data were processed

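RNA-seq libraries of 3 wild-type and 3 *asp1-H397A aps1*∆ *siw14*∆ *spx1*∆ cultures were grouped by the submitters' labels. The authors deposited raw counts per gene, made from paired reads with HISAT2 version 2.1.0 on ASM294v2, SAMtools, and HTSeq version 0.10.0. A deposited table of the authors' DESeq2 comparison (fold changes, p-values, and strain averages) was not used.

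Genes with low counts were removed by filterByExpr. TMM factors and the quasi-likelihood test of edgeR version 4.0.16 were used in R version 4.3.3, and p-values were adjusted after Benjamini and Hochberg over the 5947 genes left. The method was tested on simulated data with the same variability between replicates for every gene. That test did not cover a spread as wide as that of *inv1* in the mutant. The standard error is the absolute log2 fold change over the square root of the test's F, and 95% intervals are that error times the t quantile. Depth was 16593476 to 22690741 counts, and the number of cultures, 3 per strain, limits the precision. Alternatives were RLE factors, library totals, no filter, DESeq2 version 1.42.0, limma-voom (version 3.58.1), the replicate number as a block, glmTreat, no minimum mean, and leaving out each library.

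The 9 genes, the gene lists, and the tests were chosen with earlier results of these data known. The genes named were the 9, their coding neighbours, up to 4 genes per list with the smallest p-values among those passing, the 2 genes nearest in pattern to each called gene, and the altered genes. Names, neighbours, and exon lengths came from the ASM294v3 annotation, matched by systematic ID for 6640 of 6988 features; no coordinates or sequences are given because the builds differ. None of the 9 has a copy of at least 95% identity over 50% of its coding sequence (blastn version 2.17.0). Of 584 genes lying wholly inside a gene on the other strand, 447 had a mean of at least 10 counts.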

Additional observations from a re-analysis of the deposited data

How the results depend on the processing

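The directions of the log2 fold changes of all 9 genes were the same in each of 12 other fits, and *inv1*, *gto2*, and *dak2* stayed at an adjusted p of at most 0.05 in all 12. With glmTreat, 0 of the 9 were called higher and 0 lower, and over all genes 7 and 40; with no minimum mean the counts over all genes were 35 and 179. Leaving out each library gave 1 to 1 of the 9 called higher, 1 to 2 called lower, and 1 to 2 higher at the adjusted p; over all genes it gave 18 to 27 called higher and 100 to 115 lower. The median log2 fold change of the 9 ran from −0.41 to −0.20, the latter without wild-type replicate 3. Without that library the edgeR adjusted p of the called genes was also lower. It was 0.000139 in place of 0.0118 for *inv1*, 1.29e-08 in place of 0.000238 for *gto2*, and 4.5e-07 in place of 0.00101 for *dak2*. The cause of these shifts was not tested.

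The labels do not state whether same-numbered libraries were paired. Deviations of same-numbered libraries correlated at −0.04, 0.01, and −0.10 across genes, and those of differently numbered ones at −0.13 to 0.15. With so few libraries these values cannot decide whether the replicate number was a pairing. With the replicate number as a block, *dak1* did not pass (adjusted p = 0.0555), 3 genes of glucose sensing were lower in place of 5, and *inv1* had a log2 fold change of 1.49.

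The alternatives for the gene lists were added after the data were seen. For glucose sensing and repression, library totals gave 2 higher and 8 lower, DESeq2 gave 2 higher, limma-voom gave 1 higher, and leaving out a library gave 0 to 3 higher and 1 to 8 lower. For the other glycoside hydrolases, DESeq2 gave 2 lower, and leaving out a library gave 0 to 1 higher and 1 to 2 lower. The same ranges were 0 to 2 higher for other glycerol genes, 0 to 1 higher and 0 to 3 lower for galactose, gluconate, and hexitol use, and 0 to 1 higher for hexose transporters. With 3 libraries per strain, the 95% intervals of the log2 fold changes of the low-count genes *gld1* (−0.15 to 0.63) and *fbp1* (−0.75 to 0.05) were wide. Those of the called genes *dak2* (−1.72 to −0.90) and *inv1* (0.88 to 2.48) were no narrower.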

Other observations

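Together the 9 genes took 807, 824, and 852 CPM (counts scaled to a common library total) in wild-type replicates 1, 2, and 3 and 686, 592, and 575 in the mutant ones. *dak1* made up 46.8 to 49.9% of these counts in wild-type libraries and 47.4 to 48.9% in mutant libraries.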
